A study of Mus musculus with 64 samples.

Results

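The genes described here encode the soluble glutathione transferases (GST), the UDP-glucuronosyltransferases and related glycosyltransferases (UGT) and the cytosolic sulfotransferases (SULT), in liver, white adipose tissue (WAT), heart and skeletal muscle of mice. They were taken by symbol (Gsta, Gstm, Gstp, Gstt, Gstk, Gsto or Gstz, Ugt1a, Ugt2a, Ugt2b or Ugt3a, and Sult, each followed by a number) and kept where the mean level over the 16 libraries of at least 1 tissue was at least 1 TPM (a transcript level normalised for length and depth). Of 19521 deposited genes, 57 matched by symbol and 46 passed: 21 GST, 17 UGT and 8 SULT genes. Just inside the threshold lay Ugt1a10, at 1.15 TPM in liver, and just outside it Ugt1a8, at 0.199 TPM in WAT, and Ugt2a2, at 0.189 TPM in liver.

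These enzymes carry out the conjugation step of detoxication. GSTs join glutathione to electrophiles, UGTs transfer glucuronic acid or another sugar from a UDP-sugar to bilirubin, steroids, bile acids and drugs, and SULTs transfer sulfate from the donor PAPS to phenols, steroids and bile acids. The conjugates leave the cell through ATP-driven exporters, and the liver is the best known site of all 3 reactions. Many of the genes are known targets of NRF2, of nuclear receptors for foreign compounds such as CAR (Nr1i3), and of the circadian PAR bZIP factors DBP, TEF and HLF.

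The study is about fatty liver disease and Pklr, which encodes the pyruvate kinase found in liver and erythrocytes. It compared male C57BL/6J wild-type mice (labelled CTRL) with mice labelled as Pklr-/- mutants (labelled KO; how the allele was made is not given in the sources used here). From 8 weeks of age, 4 mice of each genotype stayed on chow and 4 ate a high-sucrose diet (HSD) for 8 weeks, and all were killed at 16 weeks. Each of the 4 tissues gave 4 libraries per genotype and diet, 64 in all. The title numbers of the libraries are not tied by the labels to single mice.

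The libraries held between 5724366 and 12188623 estimated counts. Pklr was not lower in the livers labelled KO: it stood at 113 ± 37.1 TPM (SD, n = 4) in wild type on chow, 213 ± 44.8 in wild type on HSD, 212 ± 55.2 in labelled KO on chow and 405 ± 63.4 in labelled KO on HSD. Genotype is therefore given below as labelled. Each tissue expressed its own defining markers: the sums of 6 hepatocyte, adipocyte, cardiomyocyte and skeletal muscle markers were at least 22623, 13299, 7189 and 21809 TPM in the libraries of their tissue. In liver, single wild-type libraries stood apart in 2 respects. The hepatocyte marker sum of wild-type chow ranged from 22623 to 62333 TPM, against 73643 to 80205 TPM in wild type on HSD, without overlap. In labelled KO it ranged from 54857 to 69513 TPM on chow and from 75072 to 83329 TPM on HSD, also without overlap. The chow ranges of the 2 genotypes overlapped. Saa1, an acute phase gene, was at 45057, 66.2, 4974 and 675 TPM in wild type on chow. It was at 43.1, 45.3, 68.1 and 1534 TPM in wild type on HSD, and reached 85.1 TPM at most in labelled KO. A clock score, the mean log2 level of 6 circadian genes (Ciart, Dbp, Hlf, Per2, Per3, Tef) less the mean of 3 in the opposite phase (Arntl, Clock, Npas2), also moved with the groups. In liver it ran from 0.49 to 2.93 in wild type on chow and from -2.79 to -0.01 in wild type on HSD, and from 0.88 to 2.16 and 2.12 to 3.75 in labelled KO on chow and HSD. In these bulk samples, fewer cells of a type and less RNA per cell cannot be told apart.

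Liver held the highest mean level of 33 of the 46 genes, WAT of 10, muscle of 2 and heart of 1. The 3 families differed in how widely they were expressed. A mean of at least 1 TPM in all 4 tissues was reached by 15 GST genes, by Sult1a1 alone among the SULT genes and by no UGT gene. Expression at that level in liver alone was found for 12 UGT, 4 SULT and 2 GST genes. The levels were used to choose the genes, so they are described without a test.

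**Figure D1:**
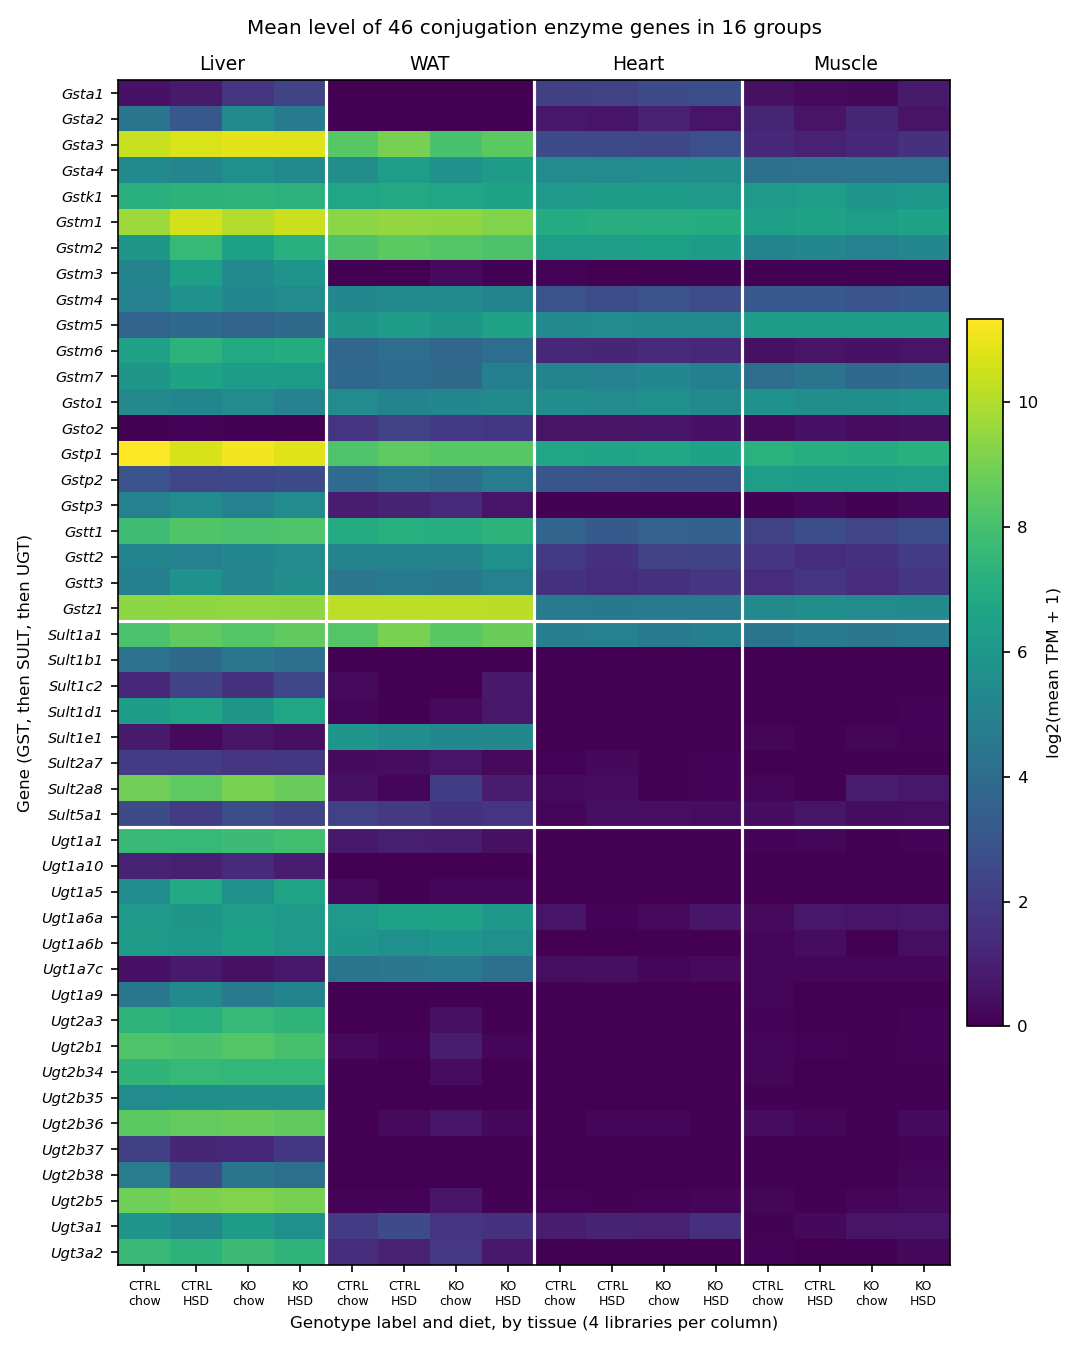
Mean level of the 46 genes (rows, GST then SULT then UGT) in the 16 groups of 4 libraries (columns, by tissue), as log2(mean TPM + 1), a colour scale. Liver columns are filled in nearly every row, WAT, heart and muscle keep a band of GST genes, and the UGT rows are low outside liver but for Ugt1a6a, Ugt1a6b and Ugt1a7c in WAT, where Ugt3a1 and Ugt3a2 average 3.11 and 1.54 TPM.

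Summed over the 21 GST genes, the level was 6774 TPM in the median liver library (range 4526 to 7665) and 3317 TPM in the median WAT library (3147 to 3986). Heart and muscle were lower, with medians of 606 and 622 TPM. The leading genes changed with the tissue. In liver Gstp1, a pi-class enzyme, made up 30.7% of the sum, the alpha-class Gsta3 24.7% and the mu-class Gstm1 17.7%. In WAT the first place went to Gstz1, the maleylacetoacetate isomerase of tyrosine breakdown, with 34.2%.

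Gstz1 in WAT was at 1186 ± 92.7 TPM (SD, n = 4) in wild type on chow, 1161 ± 52.0 in wild type on HSD, 1177 ± 178 in labelled KO on chow and 1143 ± 107 in labelled KO on HSD. The 4 groups overlapped, and Gstz1 passed no test in WAT. Gsto1, an omega-class enzyme that reduces dehydroascorbate, was the most evenly spread over tissues: its mean was 51.7 TPM in muscle, 45.2 in heart, 39.2 in WAT and 37.5 in liver. In muscle it was at 54.4 ± 8.32, 47.7 ± 8.21, 49.5 ± 9.14 and 54.97 ± 4.26 TPM (SD, n = 4) in wild type on chow and HSD and labelled KO on chow and HSD, and these groups overlapped too. Outside liver, some members stood higher than in liver, named here after their levels were seen: Gstp2 averaged 76.1 TPM in muscle against 5.03 in liver, and Gstm5 73.5 in WAT and 72.2 in muscle against 12.8 in liver. Gsta1 was the gene with its highest mean in heart, at 4.51 TPM, but only 7.14% of the 31-base words of its transcript occur in no other gene, so its reads are uncertain. Gstp1 and Gstp2 also share sequence (61.5% and 39.7% unique words), so the split of reads between them is uncertain.

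The UGT sum was 2362 TPM in the median liver library (1810 to 2573), 163 TPM in WAT, 1.71 TPM in heart and 1.80 TPM in muscle. In liver, 3 enzymes of the Ugt2b cluster on chromosome 5, which act on steroids and bile acids among others, led: Ugt2b5 (22.7%), Ugt2b36 (16.5%) and Ugt2b1 (12.3%). In WAT the Ugt2b genes were near 0 and Ugt1a6a (48.7%), Ugt1a6b (34.4%) and Ugt1a7c (12.8%) made up nearly all of the sum. The SULT sum was 911 TPM in the median liver library and 442 TPM in WAT. Sult2a8, a sulfotransferase of the hydroxysteroid and bile acid family, led in liver with 49.8%, and Sult1a1, the phenol sulfotransferase, in WAT with 88.9%. Sult1e1, the oestrogen sulfotransferase, was a WAT gene here, at 46.2 TPM against 0.481 TPM in liver.

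One WAT library carried traces of liver-type transcripts. Replicate 3 of labelled KO on chow had a hepatocyte marker sum of 390 TPM, where the other 15 WAT libraries ranged from 13.99 to 48.2 TPM. The same library had 2.92 TPM of Ugt2b1, 2.31 TPM of Ugt2b36, 2.21 TPM of Ugt2b5, 1.53 TPM of Ugt2a3 and 1.02 TPM of Gstm3, each the highest value of its gene in WAT. The part of hepatocyte RNA in these values was not tested.

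In wild-type liver, a group of mu-class GST genes was higher on HSD than on chow, together with Ugt1a9 and Gstt3. Of 44 genes of the 3 families that could be tested, 5 rose and 2 fell (edgeR quasi-likelihood test, Benjamini-Hochberg adjusted p below 0.05 over 11259 genes), where 4.67% of all genes tested were called. Gstm2, Gstm3 and Gstm6, from 1 cluster of mu-class genes, rose, as did Ugt1a9, which glucuronidates phenols, and the theta-class Gstt3. Gstp1, the most abundant GST transcript of liver, and Ugt3a2, which transfers other sugars than glucuronic acid, fell.

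The 7 Gstm genes lie side by side on chromosome 3, between bases 107895821 and 108044894 of GRCm38, with Gstm5 on the plus strand and the others on the minus strand. All 7 had a higher mean on HSD in wild-type liver, with a median log2 fold change of 0.71, where the median over all genes tested was -0.02. Gstm2 stood at 55.6, 36.8, 78.9 and 82.3 TPM in the 4 wild-type chow livers and at 173, 216, 173 and 209 TPM on HSD. Every HSD library lay above every chow library. The log2 fold change was 1.46 ± 0.28 (SE), adjusted p = 0.0111. For Gstm3 the chow values were 17.3, 28.8, 50.0 and 36.2 TPM and the HSD values 95.9, 82.4, 79.5 and 87.4 TPM. The ranges did not overlap, and the log2 fold change was 1.25 ± 0.27 (adjusted p = 0.0197). Gstm3 shares sequence with other annotated genes (62.3% unique words), so its level is less certain. Gstm6 had chow values of 62.3, 95.2, 99.5 and 98.5 TPM and HSD values of 159, 163, 160 and 150 TPM. The 4 HSD libraries lay close together and again all above chow, with a log2 fold change of 0.71 ± 0.15 (adjusted p = 0.0133).

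The other 4 genes of the cluster did not pass. Gstm1, the most abundant of the 7, was at 815 ± 337 TPM (SD, n = 4) on chow and 1494 ± 73.4 TPM on HSD in wild type, with a log2 fold change of 0.71 ± 0.20 and an adjusted p of 0.0512. In the labelled KO it was at 1033 ± 142 and 1386 ± 307 TPM. Gstm7 and Gstm4 had log2 fold changes of 0.50 ± 0.15 (adjusted p = 0.0667) and 0.63 ± 0.21 (adjusted p = 0.10) in wild type. Gstm5, the gene on the opposite strand and the least expressed of the cluster in liver, had 0.13 ± 0.22 (adjusted p = 0.786).

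**Figure D2:**
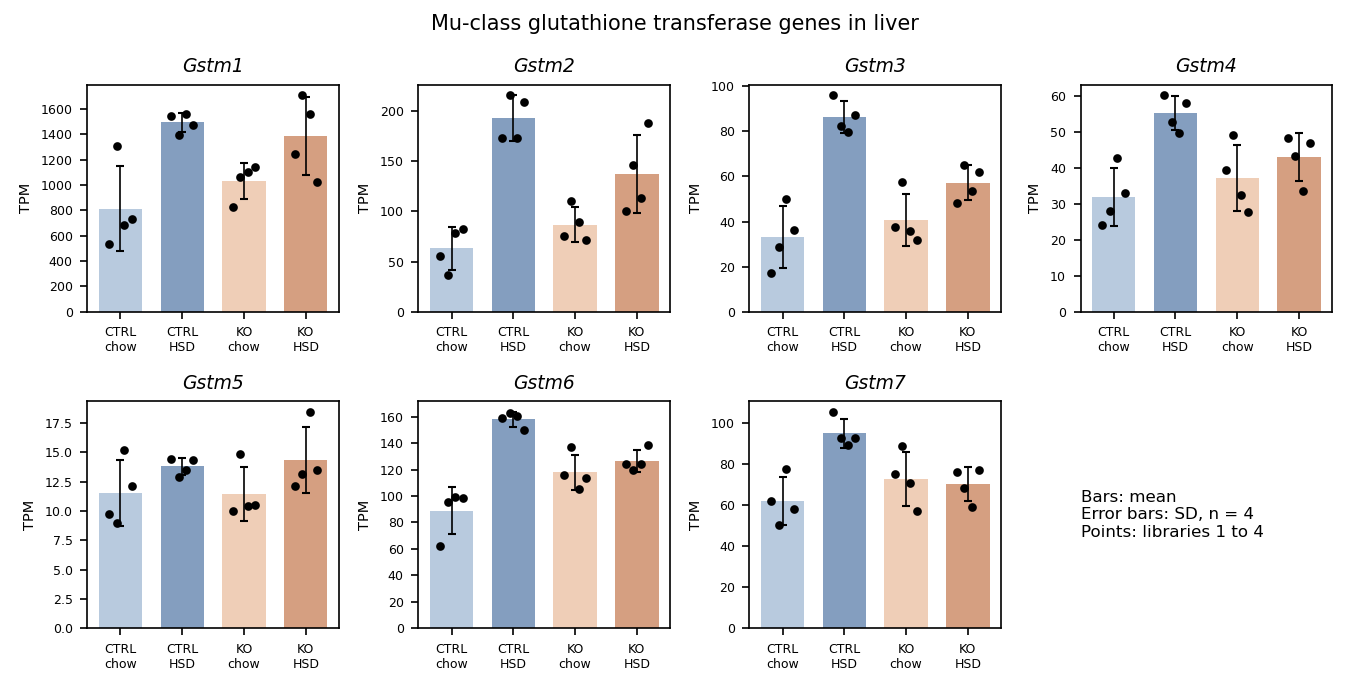
TPM of the 7 Gstm genes in liver, 1 panel per gene, by genotype label and diet (bars: mean; error bars: SD, n = 4, cut at 0; points: libraries). For Gstm2, Gstm3 and Gstm6 the 4 wild-type HSD libraries lie above the 4 wild-type chow libraries, and the labelled KO groups lie between them or overlap.

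The promoter windows of the 3 called mu-class genes are shown because these genes rose together. Each window covers the bases just before and after an annotated start, from RefSeq on GRCm38.p6, and 51 such windows were found for 41 of the 46 genes. Capitals would mark a match to 1 of 4 motifs searched on both strands: the core of the antioxidant response element, TGACNNNGC, a loose form of the D-box of the PAR bZIP factors, TTANGTAA, the E-box CACGTG of the clock activators, and the direct repeat DR4 of nuclear receptors. N stands for any base. Gstm6 has 3 windows, of which the one nearest its annotated 5′ end is printed. None of the 3 windows holds a match, which says only that these letters are not in these bases.
Gstm2, chr3:107986371-107986670, minus strand: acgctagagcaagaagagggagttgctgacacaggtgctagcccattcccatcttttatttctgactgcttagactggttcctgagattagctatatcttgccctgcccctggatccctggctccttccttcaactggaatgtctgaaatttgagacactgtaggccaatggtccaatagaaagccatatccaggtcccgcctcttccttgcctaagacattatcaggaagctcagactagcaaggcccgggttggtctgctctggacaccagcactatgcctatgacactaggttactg
Gstm3, chr3:107969125-107969424, minus strand: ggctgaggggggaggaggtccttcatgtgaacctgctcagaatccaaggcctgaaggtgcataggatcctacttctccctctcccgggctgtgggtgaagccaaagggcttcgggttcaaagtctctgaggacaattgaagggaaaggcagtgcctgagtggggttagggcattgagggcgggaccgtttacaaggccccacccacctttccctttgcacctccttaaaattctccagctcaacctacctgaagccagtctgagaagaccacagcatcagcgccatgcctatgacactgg
Gstm6, chr3:107943685-107943984, minus strand: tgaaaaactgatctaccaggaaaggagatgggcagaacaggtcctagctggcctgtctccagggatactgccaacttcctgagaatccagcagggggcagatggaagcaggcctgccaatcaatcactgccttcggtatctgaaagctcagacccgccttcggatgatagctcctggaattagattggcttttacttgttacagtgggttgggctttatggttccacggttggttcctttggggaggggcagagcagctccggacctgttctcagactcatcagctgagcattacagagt

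Outside the cluster, Ugt1a9 was at 17.01, 22.1, 20.6 and 28.8 TPM on chow and at 39.8, 38.6, 47.4 and 36.7 TPM on HSD in wild type. The groups were apart, with a log2 fold change of 0.75 ± 0.16 and an adjusted p of 0.0163. Gstt3 was at 16.2, 45.1, 20.8 and 31.3 TPM on chow and at 55.1, 64.6, 46.7 and 49.1 TPM on HSD. Its lowest HSD value lay just above its highest chow value, and the log2 fold change was 1.03 ± 0.23 (adjusted p = 0.0197). Its relative Gstt1, the most abundant theta-class gene, was at 225 ± 53.3, 305 ± 90.3, 282 ± 59.1 and 298 ± 68.6 TPM (SD, n = 4) in wild type on chow and HSD and labelled KO on chow and HSD, and the 4 groups overlapped.

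Gstp1 went the other way. It was at 1799, 2937, 2550 and 3028 TPM in the wild-type chow livers and at 1961, 1287, 1773 and 1484 TPM on HSD, so that 1 chow library lay within the HSD range. The log2 fold change was -0.81 ± 0.22, with an adjusted p of 0.0483. Ugt3a2 was at 175, 241, 178 and 206 TPM on chow and at 141, 154, 183 and 166 TPM on HSD, also with overlap, and its log2 fold change was -0.42 ± 0.12 (adjusted p = 0.0491). In labelled KO, Gstp1 was at 2254 ± 209 TPM (SD, n = 4) on chow and 1735 ± 568 TPM on HSD. Both wild-type calls lay close to the threshold. Of 8 cases of leaving out 1 library, the Gstp1 call held in 2 (without chow replicate 1 or HSD replicate 1) and the Ugt3a2 call in 1 (without chow replicate 1). Gstm2, Gstm6 and Ugt1a9 passed in all 8. Gstm3 passed in 6, not without chow replicate 2 or HSD replicate 2, and Gstt3 in 6, not without chow replicate 3 or HSD replicate 2. With only the wild-type libraries fitted, Gstm3, Gstt3, Gstp1 and Ugt3a2 did not pass.

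The clock score did not overlap between these chow and HSD livers. With the score as a covariate, 0 of the 44 genes and 1 gene in all passed. The log2 fold changes of the 5 rising genes were then 1.54 for Gstm2, 1.55 for Gstm3, 0.92 for Gstm6, 1.39 for Gstt3 and 1.01 for Ugt1a9, no smaller than without the covariate, with adjusted p from 0.218 to 0.273. Those of Gstp1 and Ugt3a2 were -0.66 and -0.30, with adjusted p of 0.551 and 0.591. Diet and clock phase cannot be told apart in this comparison. The summed level of 6 endothelial markers also differed without overlap, from 18.003 to 23.4 TPM on chow and from 26.0 to 37.8 TPM on HSD. So did the hepatocyte marker sum, from 22623 to 62333 TPM on chow and from 73643 to 80205 TPM on HSD. The part of either in the calls was not tested. Without wild-type chow replicates 1 and 3, the ones with the highest Saa1, 3 genes passed, among them Gstm3 and Ugt3a2. Gstm2 (log2 fold change 1.54), Gstm6 (0.60), Gstt3 (0.63), Ugt1a9 (0.54) and Gstp1 (-1.02) did not pass, with edgeR adjusted p from 0.0552 to 0.143.

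In livers labelled KO, 0 of 44 genes passed for HSD against chow, where 0.00888% of all genes tested did. At an unadjusted p below 0.05 there were 12 of the 44, and 10.02% of all genes. DESeq2 called 4 (Ugt3a2, Gsto1, Sult2a8 and Ugt3a1, all lower on HSD) and limma on log2(TPM + 1) called 0. The 3 genes with the smallest p were all lower on HSD. Ugt3a2 was at 207, 213, 221 and 233 TPM on chow and at 206, 166, 160 and 156 TPM on HSD, groups that met but did not overlap, with a log2 fold change of -0.49 ± 0.12 (adjusted p = 0.126). Gsto1 was at 36.4, 34.3, 49.6 and 52.6 TPM on chow and at 40.0, 32.5, 27.9 and 24.4 TPM on HSD, which overlap (-0.61 ± 0.17, adjusted p = 0.169). Sult2a8 was at 554, 426, 587 and 554 TPM on chow and at 458, 412, 408 and 429 TPM on HSD, where 1 chow library lay among the HSD values (-0.50 ± 0.15, adjusted p = 0.212).

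The Gstm genes had smaller differences under the labelled KO: 5 of 7 means were higher on HSD, and the median log2 fold change was 0.16. Gstm2 was at 76.1, 111, 89.2 and 71.6 TPM on chow and at 101, 146, 113 and 189 TPM on HSD, an overlap of 1 chow library. Gstm3 was at 40.7 ± 11.6 and 57.2 ± 7.70 TPM (SD, n = 4) and Gstm6 at 118 ± 13.4 and 127 ± 8.44 TPM on chow and HSD, both with overlap. The interaction of genotype and diet tests that contrast directly. It called 0 of 44 genes, and 0% of all genes tested, and DESeq2 and limma also called 0 of the 44. At an unadjusted p below 0.05 there were 5 of the 44, and 8.70% of all genes. The 3 smallest p belonged to Gstm6 (log2 difference of the diet effects -0.74 ± 0.21, adjusted p = 0.281), Gstm7 (-0.73 ± 0.21, adjusted p = 0.303) and Gstm2 (-0.94 ± 0.38, adjusted p = 0.517). A difference in the diet response of the mu-class genes between the genotypes was thus not established in 4 against 4 libraries. The clock score was lower on HSD in wild type and mostly higher on HSD in labelled KO. Genotype and clock phase therefore cannot be told apart in this contrast.

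**Figure D3:**
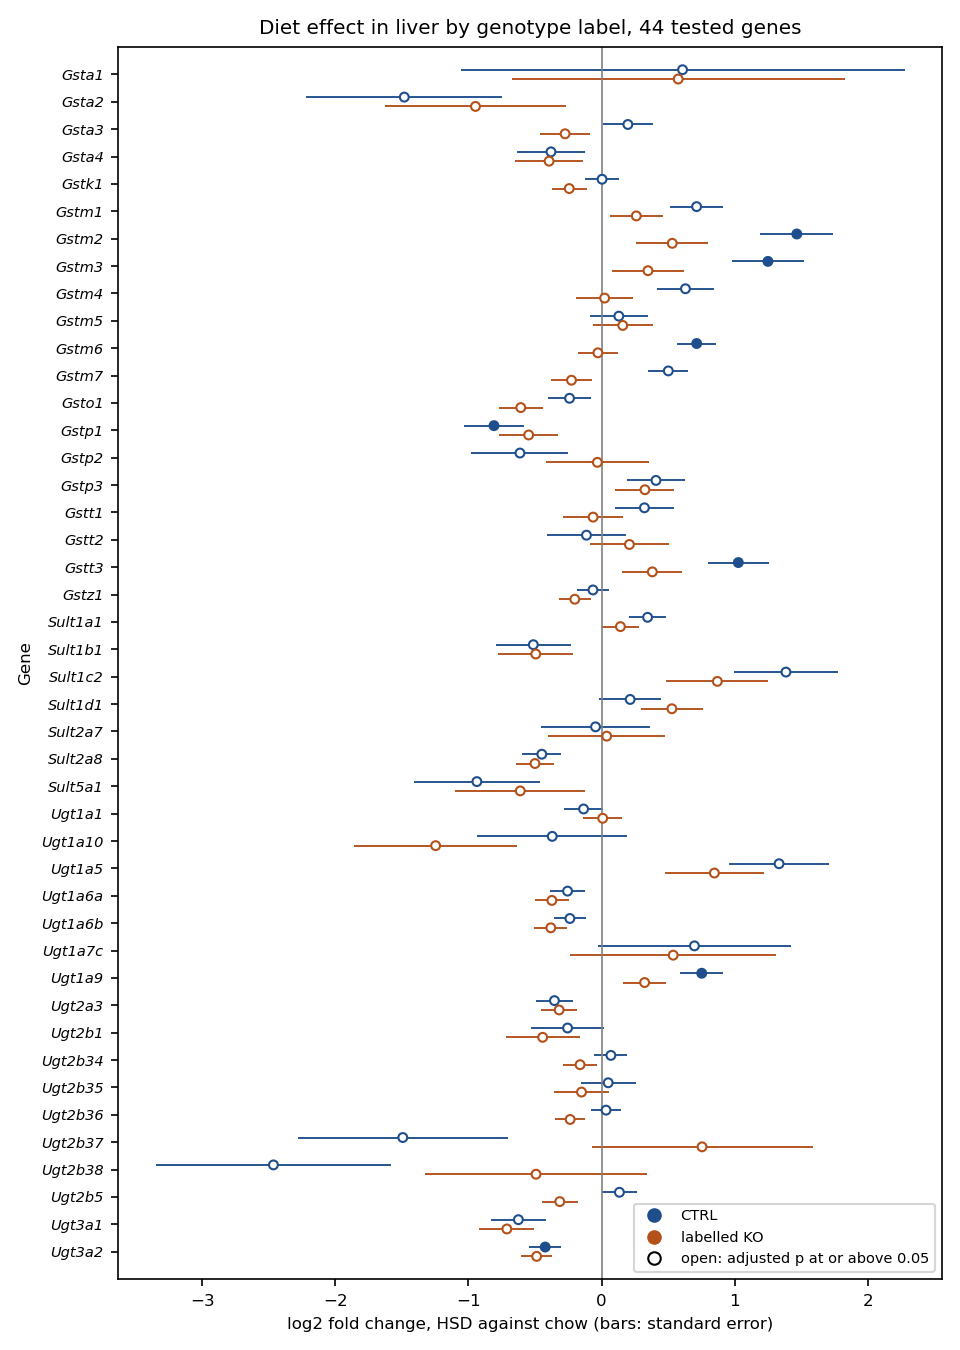
log2 fold change of HSD against chow in liver for the 44 tested genes, for wild type (CTRL) and labelled KO (points: estimate; bars: SE; filled: adjusted p below 0.05, open: not). The 7 filled points all belong to wild type: Gstm2, Gstm3, Gstm6, Gstt3 and Ugt1a9 right of 0, Gstp1 and Ugt3a2 left of it.

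With the diet effect averaged over both genotypes in liver, 6 genes rose and 6 fell of 44, and 5.59% of all genes tested were called. Those that rose were Sult1c2 (log2 fold change 1.13 ± 0.27), Ugt1a5 (1.09 ± 0.26), Gstm2 (0.997 ± 0.19), Gstm3 (0.80 ± 0.19), Gstt3 (0.70 ± 0.16) and Ugt1a9 (0.54 ± 0.12). Those that fell were Gstp1 (-0.68 ± 0.16), Ugt3a1 (-0.67 ± 0.15), Sult2a8 (-0.48 ± 0.10), Ugt3a2 (-0.46 ± 0.08), Gsto1 (-0.42 ± 0.12) and Ugt1a6b (-0.31 ± 0.09). Adjusted p ran from 0.00622 for Ugt3a2 to 0.0456 for Ugt1a6b. The calls of Gsto1 and Ugt1a6b each held in 4 of 16 cases of leaving out 1 library and were lost with limma and with the length trend removed. Ugt1a5 held in 10 of 16, Sult1c2 and Gstm3 in 12 and the other 7 in all 16. Both Ugt3a genes, whose enzymes use other sugar donors than most UGTs, thus fell, while the Ugt1a locus had members in both directions.

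Sult2a8 was at 462 ± 83.6 TPM (SD, n = 4) in wild type on chow and 368 ± 26.6 on HSD, and at 530 ± 71.1 and 427 ± 22.7 in labelled KO. Ugt3a1 followed the same order, from 61.2 ± 13.9 to 42.2 ± 4.98 TPM in wild type and from 76.7 ± 12.8 to 50.7 ± 20.6 TPM in labelled KO. Sult1c2 was a low gene, at 1.39 ± 0.70 and 3.95 ± 0.95 TPM in wild type and 2.20 ± 0.88 and 4.53 ± 1.66 TPM in labelled KO. With the clock score as a covariate 5 of the 12 were still called: Ugt3a2, Gstm2, Ugt1a9, Gstt3 and Ugt1a5.

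Between the genotype labels no gene of the 3 families passed in liver. On chow 0 of 44 did (0% of all genes tested), with 6 at an unadjusted p below 0.05 (12.2% of all genes). On HSD 0 of 44 did (0.0711% of all genes), with 3 at an unadjusted p below 0.05 (5.86% of all genes). Averaged over diets 0 of 44 did (0%), with 9 at an unadjusted p below 0.05 (9.58% of all genes). DESeq2 and limma called 0 in each of the 3. On chow the labelled KO had the higher mean in 36 of 44 genes, with a median log2 fold change of 0.23 against -0.01 over all genes. The lowest wild-type chow library, replicate 1, had the lowest GST sum in liver (4526 TPM), the lowest UGT sum (1810 TPM), the lowest hepatocyte marker sum and the highest Saa1; the part of these in the genotype values was not tested.

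The smallest p on chow were those of Gstm6 (0.46 ± 0.15, adjusted p = 0.241), Ugt2b5 (0.41 ± 0.14, adjusted p = 0.251) and Gsta3 (0.57 ± 0.19, adjusted p = 0.253). Gsta3 was at 828, 1604, 1471 and 1398 TPM in wild type on chow and at 1836, 2277, 1853 and 1602 TPM in labelled KO on chow, which meet at a single pair of libraries. On HSD the 2 genotypes overlapped, at 1632 ± 182 and 1744 ± 261 TPM (SD, n = 4). Ugt2b5 was at 460 ± 59.5 and 583 ± 27.3 TPM on chow in wild type and labelled KO, and at 546 ± 59.5 and 517 ± 50.8 TPM on HSD. It shares many words with Ugt2b38 (43.6% unique), so its level is uncertain.

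On HSD the smallest p were those of Gstm7 (log2 fold change of labelled KO against wild type -0.41 ± 0.15, adjusted p = 0.604), Gsta2 (1.68 ± 0.74, adjusted p = 0.834) and Ugt2a3 (0.31 ± 0.14, adjusted p = 0.834). Averaged over diets they were Ugt2a3 (0.29 ± 0.10, adjusted p = 0.372), Gsta2 (1.42 ± 0.50, adjusted p = 0.391) and Ugt1a6a (0.25 ± 0.09, adjusted p = 0.401). Ugt2a3, the only Ugt2a gene among the 46, was at 164 ± 24.4 and 139 ± 11.4 TPM (SD, n = 4) on chow and HSD in wild type, and in labelled KO its libraries ranged from 167 to 207 TPM on chow and from 144 to 206 TPM on HSD. Gsta2, an inducible alpha-class gene, was uneven between mice of the same group: in labelled KO on HSD it was at 70.6, 11.9, 10.1 and 5.20 TPM, and in wild type on chow at 5.66, 40.8, 8.44 and 22.7 TPM. Without the library at 70.6 TPM, replicate 1, the log2 fold change of Gsta2 was 0.27 on HSD and 0.71 averaged over diets. Gsta2 also shares many words with Gsta1 (39.3% unique), so its level is uncertain.

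Other leading members of their classes passed none of the within-tissue liver tests. Gstk1, the kappa-class enzyme of mitochondria and peroxisomes, was at 146 ± 7.69, 159 ± 20.2, 165 ± 22.1 and 154 ± 29.8 TPM (SD, n = 4) in wild type on chow and HSD and labelled KO on chow and HSD. Ugt1a1, the bilirubin-conjugating enzyme, was at 199 ± 48.4, 194 ± 27.6, 214 ± 56.3 and 235 ± 16.6 TPM in the same order. Sult5a1 was at 4.98 ± 2.53, 2.88 ± 0.75, 5.66 ± 2.93 and 3.93 ± 3.83 TPM. For each of these the 4 groups overlapped.

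The Ugt1a genes lie at 1 locus on chromosome 1, from base 88055388 to base 88220002 of GRCm38 on the plus strand. Most of their upstream exons are annotated for 1 member. Those from base 88138473 (859 bases) and from base 88103252 (127 bases) are annotated for 2 members each. All 7 share 3 common exons of 132, 88 and 220 bases, and a last exon from the same start. Between 15.8% (Ugt1a6b) and 47.0% (Ugt1a6a) of their 31-base words are unique, so the assignment of reads among them is uncertain. Their mix in liver differed between the diets: of the summed Ugt1a level, Ugt1a5 held 10.8% ± 6.12 (SD, n = 4) in wild type on chow and 25.3% ± 4.55 on HSD, and 11.3% ± 3.47 and 19.3% ± 5.97 in labelled KO. Ugt1a1 held 48.6% ± 6.29 and 39.7% ± 1.94 in wild type and 46.6% ± 6.25 and 46.2% ± 3.12 in labelled KO. These shares are described without a test.

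Ugt1a5 was at 18.02, 38.6, 79.5 and 40.9 TPM in wild type on chow and at 124, 143, 114 and 107 TPM on HSD, without overlap. In labelled KO it was at 51.4, 60.8, 53.5 and 34.2 TPM on chow and at 61.3, 93.9, 100 and 139 TPM on HSD, again without overlap. Ugt1a9 in labelled KO was at 19.3, 20.9, 27.8 and 30.7 TPM on chow and at 31.2, 30.3, 38.1 and 35.2 TPM on HSD, where 1 chow library reached into the HSD range. Ugt1a6b went the other way, at 72.2 ± 13.5 and 65.9 ± 10.46 TPM (SD, n = 4) in wild type and 82.6 ± 7.54 and 69.8 ± 7.08 TPM in labelled KO on chow and HSD.

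**Figure D4:**
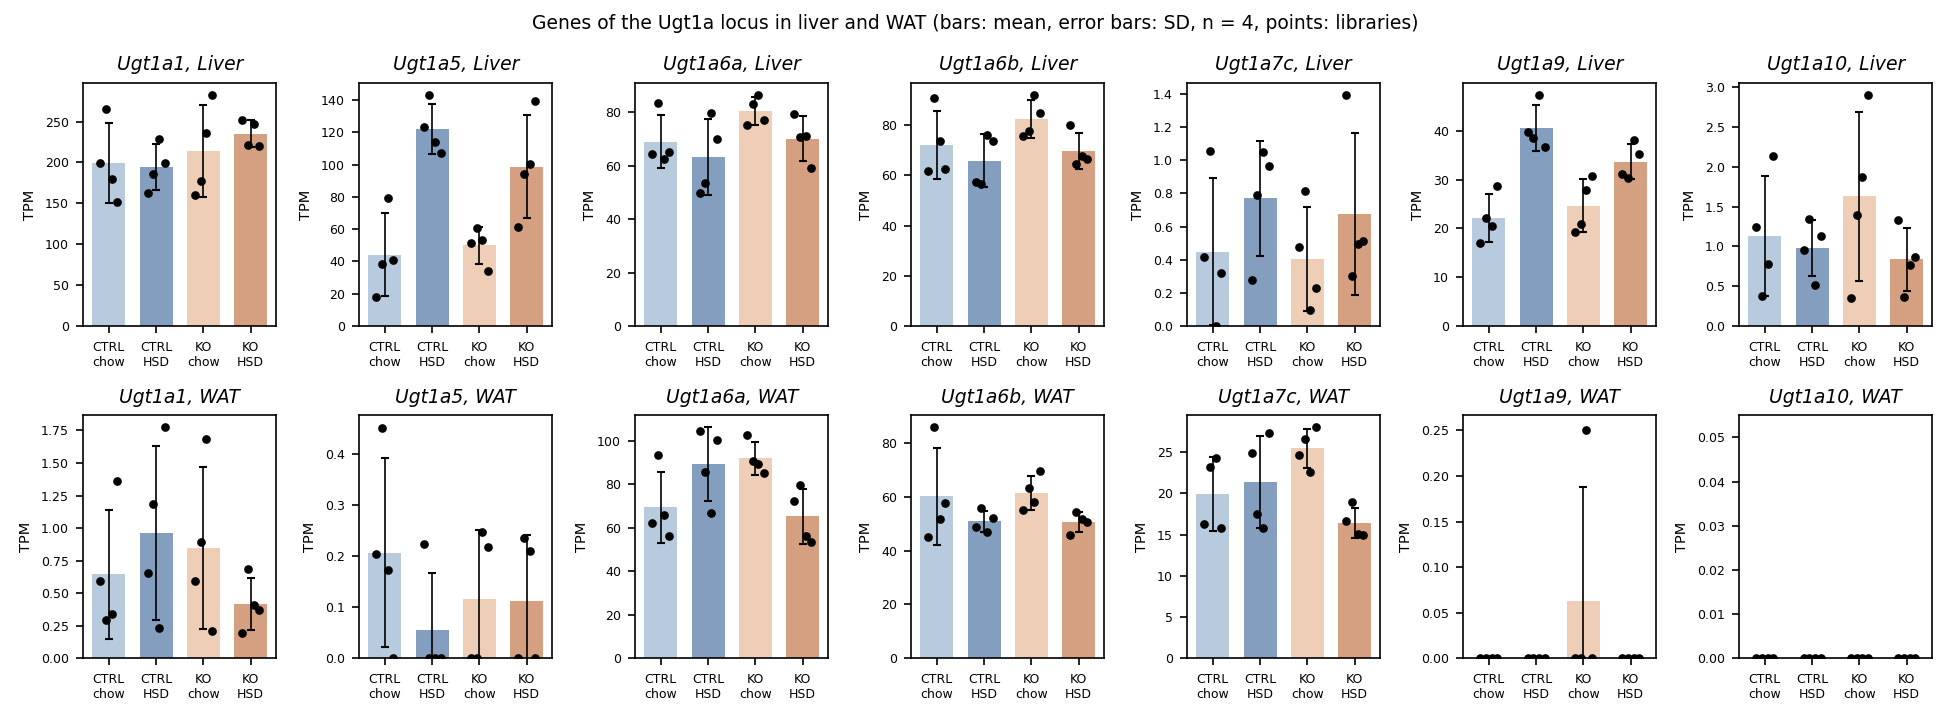
TPM of the genes of the Ugt1a locus in liver and WAT by genotype label and diet (bars: mean; error bars: SD, n = 4, cut at 0; points: libraries). In liver Ugt1a5 and Ugt1a9 are higher on HSD under both labels, and in WAT Ugt1a6a, Ugt1a6b and Ugt1a7c are the members with a mean of at least 1 TPM.

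The promoter window of Ugt1a9 is shown because it is 1 of 3 among the 41 genes with a window, with Sult1a1 and Ugt2b1, to match TTANGTAA (capitals). This loose form of the D-box takes any base at N, which is A here, and 2.32% of all 32851 windows of this length hold it. The match is a description of the sequence, not a bound site.
Ugt1a9, chr1:88070529-88070828, plus strand: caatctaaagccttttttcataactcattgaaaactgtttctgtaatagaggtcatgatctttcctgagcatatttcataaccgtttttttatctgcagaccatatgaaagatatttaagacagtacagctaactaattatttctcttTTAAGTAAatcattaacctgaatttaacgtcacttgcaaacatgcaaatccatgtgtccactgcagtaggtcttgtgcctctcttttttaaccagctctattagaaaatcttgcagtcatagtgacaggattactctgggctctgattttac

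In WAT of wild-type mice, Sult1a1, Gsta4, Gstp1, Gstm2 and Gsta3 were higher on HSD than on chow. These 5 of 25 tested genes rose and 0 fell, where 4.77% of the 13255 genes tested were called. Under the labelled KO, 2 of 25 rose, again Gsta4 and Sult1a1, where 6.38% of all genes were called. The summed level of the 6 endothelial markers was lower on HSD without overlap under both labels, at 272 to 401 TPM on chow and 184 to 231 TPM on HSD in wild type and at 318 to 399 TPM and 236 to 252 TPM in labelled KO. The adipocyte marker sums overlapped between the diets in both. The part of cell composition in these calls was not tested.

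Sult1a1, the main sulfotransferase of WAT, was at 278, 381, 300 and 317 TPM in wild type on chow and at 551, 541, 425 and 583 TPM on HSD. Every HSD library lay above every chow library, and the log2 fold change was 0.92 ± 0.11 (adjusted p = 0.00114). In labelled KO it was at 330, 359, 338 and 359 TPM on chow and at 422, 395, 487 and 466 TPM on HSD, also without overlap (0.52 ± 0.11, adjusted p = 0.0116). Gsta4, which conjugates the lipid peroxidation product hydroxynonenal, was at 44.6, 50.9, 49.0 and 46.3 TPM in wild type on chow and at 82.6, 72.1, 73.4 and 85.9 TPM on HSD. The groups were far apart relative to their spread, with a log2 fold change of 0.89 ± 0.11 (adjusted p = 0.00142). In labelled KO it was at 62.5, 52.1, 50.7 and 51.6 TPM on chow and at 70.4, 69.6, 72.4 and 81.6 TPM on HSD, without overlap (0.58 ± 0.11, adjusted p = 0.00651). Both genes passed in all 8 cases of leaving out 1 library, under either label, but limma did not call Sult1a1 in labelled KO.

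The other 3 calls were in wild type. Gstp1 was at 306, 232, 316 and 311 TPM on chow and at 398, 377, 338 and 352 TPM on HSD, without overlap (0.50 ± 0.11, adjusted p = 0.0236). Gstm2 was at 235, 302, 307 and 288 TPM on chow and at 364, 377, 297 and 374 TPM on HSD, with 1 HSD library among the chow values (0.49 ± 0.13, adjusted p = 0.0435). Gsta3 was at 246, 283, 402 and 420 TPM on chow and at 565, 499, 380 and 607 TPM on HSD, with the same kind of overlap (0.83 ± 0.23, adjusted p = 0.0491). In labelled KO, Gstp1 was at 332 ± 27.4 and 337 ± 28.4 TPM (SD, n = 4), Gstm2 at 319 ± 29.9 and 289 ± 39.7 TPM and Gsta3 at 266 ± 78.2 and 358 ± 63.6 TPM on chow and HSD, each with overlap. Of 8 cases of leaving out 1 library, the call of Gstp1 held in 5 (not without chow replicate 4, HSD replicate 1 or HSD replicate 2) and those of Gstm2 and Gsta3 in 1 (without chow replicate 3). Limma called none of these 3.

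The clock score in WAT was between -0.48 and 1.41 in wild type on chow and between -1.48 and 0.23 on HSD, and between -1.55 and 0.09 in labelled KO on chow and between 2.43 and 3.23 on HSD. With it as a covariate Sult1a1 and Gsta4 were still called in wild type and 0 of 25 genes in labelled KO. The log2 fold changes in labelled KO were then 0.73 for Gsta4 and 0.72 for Sult1a1, larger than without the covariate, with an adjusted p of 0.901 for both, so diet and clock phase cannot be told apart there. Wild-type chow replicates 2 and 4 also had the steepest trends of level on transcript length. Without them Sult1a1 and Gsta4 were called, and Gstp1, Gstm2 and Gsta3 were not.

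The windows before Sult1a1 and Gsta3 are shown with the motif that each holds in capitals: the loose form of the D-box, with G at N, in Sult1a1, and in Gsta3 the antioxidant response element core, which 12.4% of all windows hold and which was also found for Gstm5 and Gstm7. Neither the E-box (7.15% of all windows) nor the nuclear receptor repeat (0.0152%) was found in the windows of these 41 genes.
Sult1a1, chr7:126676369-126676668, minus strand: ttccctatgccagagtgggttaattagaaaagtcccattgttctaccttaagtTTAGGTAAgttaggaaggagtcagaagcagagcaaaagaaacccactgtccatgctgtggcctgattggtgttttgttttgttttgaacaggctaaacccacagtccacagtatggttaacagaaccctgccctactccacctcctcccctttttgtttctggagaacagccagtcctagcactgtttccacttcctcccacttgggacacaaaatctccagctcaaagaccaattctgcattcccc
Gsta3, chr1:21240335-21240634, plus strand: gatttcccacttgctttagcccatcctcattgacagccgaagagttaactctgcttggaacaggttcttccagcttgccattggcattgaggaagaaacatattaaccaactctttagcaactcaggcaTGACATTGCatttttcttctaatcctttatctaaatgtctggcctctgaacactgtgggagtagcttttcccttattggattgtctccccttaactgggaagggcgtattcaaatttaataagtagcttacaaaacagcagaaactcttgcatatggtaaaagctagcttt

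Between the genotype labels no gene of the 3 families passed in WAT. On chow 0 of 25 did, although 6.68% of all genes were called, with 3 of the 25 at an unadjusted p below 0.05, 1 by DESeq2 (Ugt1a6a) and 0 by limma. On HSD 0 of 25 did (0.106% of all genes), with 9 at an unadjusted p below 0.05 and 0 by DESeq2 or limma. The interaction called 0 of 25 (0.573% of all genes), with 7 at an unadjusted p below 0.05, 1 by DESeq2 (Ugt1a6a) and 0 by limma. Of all genes tested, 23.2% on chow, 10.6% on HSD and 18.5% in the interaction were at an unadjusted p below 0.05. Ugt1a6a, named here after its values were seen, was at 62.4, 93.3, 65.7 and 56.1 TPM in wild type and 102, 90.8, 89.3 and 85.0 TPM in labelled KO on chow, and at 105, 85.6, 66.6 and 100 TPM and 72.1, 79.8, 56.1 and 53.4 TPM on HSD. The direction of the genotype difference thus changed with the diet in the means, with overlap on both diets. The log2 difference of the diet effects was -0.91 ± 0.22 (adjusted p = 0.0623 by edgeR). The clock score ranges of WAT also moved with diet in opposite directions under the 2 labels, so clock phase cannot be told apart from genotype here.

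Gstm7 in WAT was high in 2 libraries of labelled KO on HSD, at 55.9 and 29.8 TPM, against 9.90 to 20.0 TPM in the other 14. The same 2 libraries had epididymis marker sums of 31.04 and 18.9 TPM, another library (wild type on chow, replicate 1) had 11.2 TPM with 20.0 TPM of Gstm7, and the others had at most 0.744 TPM. The part of epididymal RNA in the Gstm7 values was not tested, and Gstm7 passed no WAT comparison.

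The response to sucrose, averaged over the genotypes, was then compared between liver and WAT. Of the 46 genes, 23 had enough counts to be tested in each tissue, and the other 23 had too few in 1 of them to compare. In the joint fit of both tissues all 46 were tested, and 1 had a more positive and 4 a more negative response in liver. In that fit 7.77% of the 13893 genes tested differed. All 5 genes were among the 23 tested in each tissue, a narrower set for which no share over all genes was computed. Gstm2 had the more positive response in liver, with a log2 difference of 0.76 ± 0.22 (adjusted p = 0.0298). Gsta4 (-1.12 ± 0.20, adjusted p = 0.00105), Gstp1 (-1.004 ± 0.20, adjusted p = 0.00196), Gsta3 (-0.72 ± 0.23, adjusted p = 0.0484) and Sult1a1 (-0.48 ± 0.13, adjusted p = 0.021) had a more negative response in liver than in WAT. The Gsta3 difference held in 9 of 32 cases of leaving out 1 library, and was lost with DESeq2's size factors, without the low-count filter, with the clock score and with limma. Those of Gsta4 and Gstp1 held in all 32 and in each of 6 other settings. The Sult1a1 difference held in all 32 but was lost with the clock score and with limma. That of Gstm2 held in 30, not without labelled KO liver chow replicate 4 or HSD replicate 4, and was lost with the clock score. Gstp1 was the member called in opposite directions in the 2 tissues of wild-type mice. Gsta4 in liver was at 41.8 ± 18.4 and 34.5 ± 8.76 TPM (SD, n = 4) in wild type on chow and HSD, and Sult1a1 at 277 ± 22.96 and 381 ± 33.2 TPM. Sult1a1 in wild-type liver thus had separate ranges by diet, but its log2 fold change of 0.34 ± 0.14 there had an adjusted p of 0.16.

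**Figure D5:**
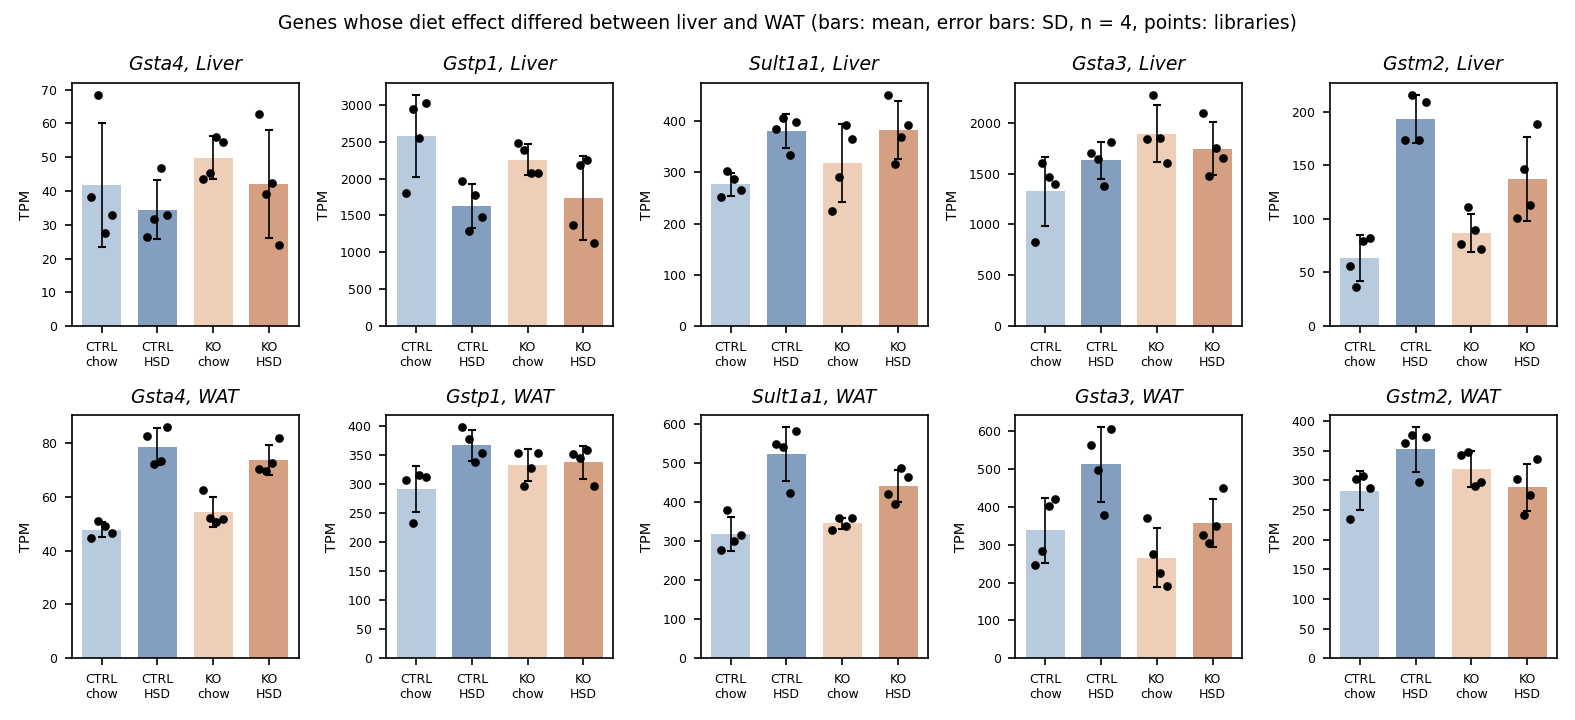
TPM of the 5 genes whose diet response differed between liver and WAT, by genotype label and diet, in both tissues (bars: mean; error bars: SD, n = 4, cut at 0; points: libraries). Gsta4 and Sult1a1 rise on HSD in WAT under both labels, and in wild type Gstp1 is lower on HSD in liver and higher in WAT.

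In heart, 0 of 20 tested genes passed in each of the 5 comparisons. The share of all genes called was 0.0247% for HSD against chow in wild type, 0.14% in labelled KO, 0% for labelled KO against wild type on chow, 0.0412% on HSD and 0.00824% for the interaction. The numbers of the 20 at an unadjusted p below 0.05 were 2, 1, 2, 2 and 0 in the same order. Of all genes tested, 6.16%, 7.43%, 3.68%, 5.44% and 4.78% were at such a p. DESeq2 called 1 (Sult1a1 in labelled KO, 0.45 for HSD against chow, adjusted p = 0.0386) and limma 0. Sult1a1 in those hearts was at 19.1, 24.1, 28.5 and 25.0 TPM on chow and at 28.6, 28.5, 28.6 and 29.8 TPM on HSD. The ranges lie just apart, and edgeR gave an adjusted p of 0.143.

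In muscle, 0 of 18 tested genes passed in each of the 5 comparisons. The share of all genes called was 0.091% for HSD against chow in wild type, 0.00827% in labelled KO, and 0% for the genotype on chow, the genotype on HSD and the interaction. The numbers of the 18 at an unadjusted p below 0.05 were 0, 0, 2, 0 and 2, and DESeq2 and limma called 0 in all 5. Of all genes tested, 14.9%, 8.39%, 11.3%, 5.16% and 7.88% were at such a p, in the same order.

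The genes that supply, regulate and follow conjugation were taken from 7 lists. For HSD against chow in wild-type liver, 4.67% of all genes tested were called. In wild-type liver on HSD, 2 of 10 tested NRF2 target genes rose (Gclc, 0.58 ± 0.13, and Srxn1, 0.60 ± 0.15) and 0 fell, with a list median of -0.06 against -0.02 over all genes. Of 8 genes of glutathione supply, Gclc, the catalytic subunit of the first step of glutathione synthesis, rose and Gss, glutathione synthetase, fell (-0.48 ± 0.12). Of 7 genes of UDP-glucuronic acid supply, the one with the smallest p was Ugdh (-0.46 ± 0.16, adjusted p = 0.111). Of 7 genes of PAPS supply, Slc26a1, a sulfate transporter, fell (-0.72 ± 0.14). Of 15 regulators 3 fell: Dbp (-2.07 ± 0.52) and Tef (-1.10 ± 0.27), which bind the D-box, and Nr1h4, the bile acid receptor FXR (-0.45 ± 0.12). Of 5 conjugate exporters, Abcc3 had the smallest p (-1.27 ± 0.41, adjusted p = 0.0922). Among other conjugating enzymes Nnmt, the nicotinamide methyltransferase, fell (-1.49 ± 0.35). Dbp and Tef are also genes of the clock score.

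In livers labelled KO the smallest adjusted p for HSD against chow among the listed genes was 0.127, that of Gss (-0.51 ± 0.13). With the diet effect averaged over genotypes, Srxn1 rose (0.44 ± 0.11) and Osgin1 fell (-1.06 ± 0.24) among NRF2 targets. Where 5.59% of all genes tested were called, 2 of 8 genes of glutathione supply fell (Cth, -0.79 ± 0.21, and Gss, -0.49 ± 0.09), as did 1 of 7 of UDP-glucuronic acid supply and 2 of 7 of PAPS supply. They were Ugdh, the enzyme that makes UDP-glucuronic acid (-0.42 ± 0.12), and Bpnt1 (-0.24 ± 0.07) and Slc26a1 (-0.58 ± 0.10) for sulfation. Nr1i3, the receptor CAR, fell by 0.89 ± 0.22 and Stat5b by 0.29 ± 0.07 on the log2 scale, and Nnmt also fell (-0.90 ± 0.24).

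In WAT, 11, 8, 7, 7, 12, 5 and 12 genes of the 7 lists were tested, in the order used for liver. Of all genes tested there, 4.77% were called for HSD against chow in wild type and 6.38% in labelled KO. Between the genotypes it was 6.68% on chow, 0.106% on HSD and 0.573% in the interaction. In wild-type WAT on HSD, Gsr, glutathione reductase (0.39 ± 0.10), Pgm1 (0.41 ± 0.10) and Suox (0.44 ± 0.11) rose. Txnrd1 (-0.42 ± 0.11), Gss (-0.45 ± 0.12), Hlf (-0.92 ± 0.21), the exporters Abcb1a (-0.66 ± 0.12) and Abcc3 (-0.77 ± 0.15), and Hpgds, a prostaglandin D synthase of the sigma GST class (-1.23 ± 0.28), fell. In labelled KO WAT on HSD, Gsr (0.40 ± 0.11), Oplah (0.53 ± 0.15), Pgm1 (0.57 ± 0.10), Ppara (1.03 ± 0.21) and the PAR bZIP genes Dbp (2.68 ± 0.43), Hlf (2.10 ± 0.21) and Tef (1.29 ± 0.18) rose, and Hk1 (-0.42 ± 0.11) and Abcc3 (-0.55 ± 0.15) fell. Between the genotypes on chow, Hlf (-0.91 ± 0.21), Ppara (-0.76 ± 0.21), Abcb1a (-0.51 ± 0.12) and Abcc1 (-0.36 ± 0.10) were lower in the labelled KO. On HSD Dbp (2.55 ± 0.43), Hlf (2.12 ± 0.21) and Tef (1.24 ± 0.18) were higher in it, and the same 3 passed the interaction test. In heart Tef rose on HSD in labelled KO (0.77 ± 0.14, adjusted p = 0.0439), and in muscle the exporter Abcc1 rose on HSD in wild type (0.60 ± 0.10, adjusted p = 0.0428), the only listed genes past the threshold in edgeR's tests of these 2 tissues.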

How the data were processed

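Bulk RNA of 64 mouse tissue samples was sequenced. The authors deposited TPM and estimated counts for 19521 genes, made with kallisto on GRCm38 per the submitters' processing notes; their versions and the annotation are not stated there. Estimated counts deposited by the authors were rounded and tested per tissue with edgeR 4.0.16 (R 4.3.3; filterByExpr with a minimum count of 10, TMM, 1 mean per group, quasi-likelihood F test, 2-sided, Benjamini-Hochberg over all genes, threshold 0.05). The 4 libraries of a group are separate samples by their labels. Alternatives were DESeq2 1.42.0, limma 3.58.1 on log2(TPM + 1), other scaling, no filter, leaving out libraries, the clock score or transcript length. Levels are the deposited TPM. Depth was 5724366 to 12188623 counts; on simulated data the wild-type liver diet test recovered 65.2% of genes changed 2-fold and 23.9% changed 1.5-fold among 11108 genes, so smaller changes can be missed. Named genes are the leading member of each class, members past the threshold, and the 3 smallest p in liver comparisons with fewer than 3 calls; other names were chosen after their values were seen. The members and lists were chosen with earlier results of these data known. No 2 libraries held identical values. A gene of the lists is not reported here.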

Additional observations from a re-analysis of the deposited data

Results flagged for a closer look

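In 7 of 96 groups of 4 libraries, 1 library lay far from the other 3 for a gene named above; chance alone flags about 1 in 20 groups. Gsta2 in liver of labelled KO on HSD was at 70.6 TPM in replicate 1, where the others ranged from 5.20 to 11.9 TPM. Gstm6 in liver of wild type on chow was at 62.3 TPM in replicate 1, below 95.2 to 99.5 TPM in the others, and Ugt1a6a in the same group was at 83.7 TPM in replicate 2, above 62.4 to 65.2 TPM. Ugt3a1 in liver of wild type on HSD was at 34.8 TPM in replicate 1, below 44.3 to 44.9 TPM. In WAT, Gsta4 was at 62.5 TPM in replicate 1 of labelled KO on chow (others 50.7 to 52.1), Gstm2 at 297 TPM in replicate 3 of wild type on HSD (others 364 to 377), and Gstp1 at 232 TPM in replicate 2 of wild type on chow (others 306 to 316).

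The response to sucrose differed between liver and WAT by a test of the difference itself for 5 genes, given as liver minus WAT on the log2 scale: Gsta4 (-1.12), Gstp1 (-1.004), Gsta3 (-0.72), Sult1a1 (-0.48) and Gstm2 (0.76). The Gsta3 difference held in 9 of 32 cases of leaving out 1 library. With the clock score as a covariate, those of Gsta3, Sult1a1 and Gstm2 were lost.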

How the results depend on the processing

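Of 964 values of single genes under an alternative, 0 changed direction. These genes were picked for a small p in the same libraries, so a change was unlikely from the start and the count is no test. Leave-outs aside, 146 settings kept the number of genes called within 1.5 times and 18 moved it; the cause was not tested. For HSD against chow in wild-type liver (7 called), 14 passed with DESeq2, 4 with only the libraries compared, 3 without wild-type chow replicates 1 and 3 and 0 with the clock score as covariate; leaving out 1 library gave 3 (without wild-type HSD replicate 2) to 8. In labelled KO liver (0 called), DESeq2 called 4, and leaving out 1 library gave 0 to 3 (3 without labelled KO HSD replicate 1). Averaged over genotypes (12 called), 6 passed with the clock score, 5 of them among the 12, and leaving out 1 library gave 7 (without labelled KO chow replicate 4) to 16. For wild-type WAT (5 called), 3 passed without the low-count filter, 2 with the clock score, 2 with limma and 2 without wild-type chow replicates 2 and 4; leaving out 1 library gave 2 to 5, with 2 without chow replicate 4 or HSD replicate 1 or 2 and 3 without chow replicate 1 or HSD replicate 4. For labelled KO WAT (2 called), DESeq2 called 6 and the clock score left 0; leaving out 1 library gave 2 to 4, with 4 without chow replicate 3 or HSD replicate 1 or 4. In WAT the genotype on chow and the interaction (0 called) each had 1 with DESeq2; leaving out 1 library gave 0 to 1 in both, with 1 without wild-type chow replicate 2 in both, and in the interaction also without labelled KO chow replicate 3 or wild-type HSD replicate 3. HSD against chow in labelled KO heart (0 called) had 1 with DESeq2. For liver against WAT (5 called), the clock score left 2, DESeq2 called 8 and limma 9, and leaving out 1 library gave 3 (without labelled KO liver HSD replicate 4) to 6. The sets without 2 libraries were chosen after seeing the data.

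Within a tissue, no paired analysis was possible because the groups compared share no title numbers. For liver against WAT, with the title number as a replicate block, 6 genes were called, with all 5 of the unblocked fit among them. Liver and WAT libraries of the same number correlated by -0.03 to 0.22 in their deviations (over 0.1 in 7 of 16 pairs, not in every pair), and the labels tie no number to a mouse, so the numbers were not taken as pairs. That 11 of 16 correlated best with their own number is a hint of pairing from the data, not from the design. Low genes rest on few counts: Sult1e1 in liver and Gsto2 in liver had too few to be tested.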
